A study of Mus musculus with 9 samples.

Results

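The Hippo genes described here are 10 genes of the deposited expression table, chosen by name: the kinases *Lats1* and *Lats2*, the coactivators *Yap1* and *Wwtr1* (the gene for TAZ), the DNA-binding partners *Tead1*, *Tead2*, *Tead3* and *Tead4*, and the target genes *Ctgf* and *Cyr61*. Each of the 10 has a locus of its own among the 24138 loci of the table. No rule on measured values picked them, but they were chosen with earlier results of these data known. RNA was sequenced from whole mouse kidneys at E15.5, with 3 kidneys and 3 libraries of each of 3 genotypes, taken from 3 crosses that are not tied to single libraries. MUT kidneys were Foxd1GC/+;Ntn1fl/fl, HET kidneys were Foxd1GC/+;Ntn1fl/+ and WT kidneys were Ntn1fl/fl, so every genotype carries at least 1 floxed *Ntn1* allele. In HET and MUT the GFP-Cre inserted at the *Foxd1* locus also removes 1 functional *Foxd1* allele, and recombination is limited to cells of the *Foxd1* stromal lineage, while all other cells of the kidney keep *Ntn1*. WT kidneys have no Cre and both *Foxd1* alleles. By genotype, MUT and HET thus differ in the second *Ntn1* allele alone, and the comparisons with WT change *Ntn1* and *Foxd1* together.

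The Hippo pathway is a kinase cascade that restrains tissue growth. LATS kinases phosphorylate YAP and TAZ, which then stay in the cytoplasm or are degraded, and without that phosphorylation YAP and TAZ enter the nucleus and drive transcription together with TEAD proteins. In the embryonic kidney the pathway is known to act in nephron progenitors, in the ureteric epithelium and in the *Foxd1* stroma. Phosphorylation and localisation of the proteins were not measured in these libraries, which hold transcript levels only.

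Levels are FPKM (fragments per kilobase of transcript, scaled to the size of the library), and are set side by side between genes on that scale. Division by length does not remove every bias, since some libraries still deviated with transcript length or GC content, as given below. A bias of a gene shared by all libraries was not tested. In bulk kidney RNA, fewer cells of a type and less RNA per cell cannot be told apart. The read number behind each library is unknown, but the spacing of the lowest FPKM gave relative depths between 0.563 in WT-2 and 1.28 in MUT-1, with WT-1 set to 1. MUT-3 was also low, at 0.611, and every library apart from WT-2 and MUT-3 was at 0.901 or above. *Ntn1*, the targeted gene, lay between 17.8 and 28.9 FPKM in the WT libraries, between 12.0 and 16.5 in HET and between 10.8 and 16.5 in MUT, so HET and MUT overlapped. *Foxd1* was 31.0 ± 4.46 in WT, 21.1 ± 0.801 in HET and 23.9 ± 1.22 in MUT (mean ± SD, n = 3 each).

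Libraries WT-1, MUT-1, WT-3, HET-3 and HET-2 stood apart in ways that touch the Hippo genes or their comparisons. In WT-1 and MUT-1, the deviation of a locus from its mean over the 9 libraries increased with transcript length (Pearson r of 0.435 and 0.514 across 9936 loci). In the other 7 libraries r lay between -0.375 in HET-1 and 0.206 in HET-3. With GC content in place of length, r was -0.528 in WT-3 and -0.334 in HET-3. Elsewhere it lay between -0.112 in MUT-2 and 0.316 in HET-2. HET-2 held 244 FPKM of the liver gene *Alb*, against at most 4.77 in any other library, and 7 liver genes summed to 715 FPKM there against 28.6 to 53.8 elsewhere. Summed levels of 8 stromal marker genes were 464 to 615 FPKM in WT, 504 to 585 in HET and 613 to 662 in MUT, and those of 5 nephron progenitor markers 224 to 289, 264 to 304 and 249 to 335, so both populations were represented in every genotype. The 6 smooth muscle markers summed to 81.4 to 100 FPKM in WT, 108 to 144 in HET and 82.7 to 92.7 in MUT. The part of these library differences in the values below was not tested, beyond the values given without the libraries concerned.

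*Tead2* was the most abundant of the 10 transcripts, at 128.5 ± 10.7 FPKM (mean ± SD, n = 9 libraries), followed by *Yap1* at 62.1 ± 6.73. *Wwtr1* at 23.2 ± 2.84, *Tead1* at 20.4 ± 4.99, *Cyr61* at 18.3 ± 3.82 and *Tead3* at 17.4 ± 1.46 formed a middle tier. *Lats1* at 13.9 ± 2.21, *Lats2* at 13.0 ± 3.06 and *Ctgf* at 9.68 ± 1.83 came next, and *Tead4* was lowest at 1.81 ± 0.428. Neighbours in this order were compared within each library by an exact two-sided sign-flip test adjusted over the 9 neighbouring pairs. *Tead1* and *Cyr61* (adjusted p = 0.114), *Cyr61* and *Tead3* (adjusted p = 0.512), and *Lats1* and *Lats2* (adjusted p = 0.110) were not separated in this exact test. The other 6 neighbouring pairs were, with adjusted exact p between 0.00879 and 0.0234, and the smallest unadjusted p that 9 libraries allow is 0.00391. The test measures how steady a difference was over the libraries, and not a bias of a gene shared by all of them.

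**Figure D1:**
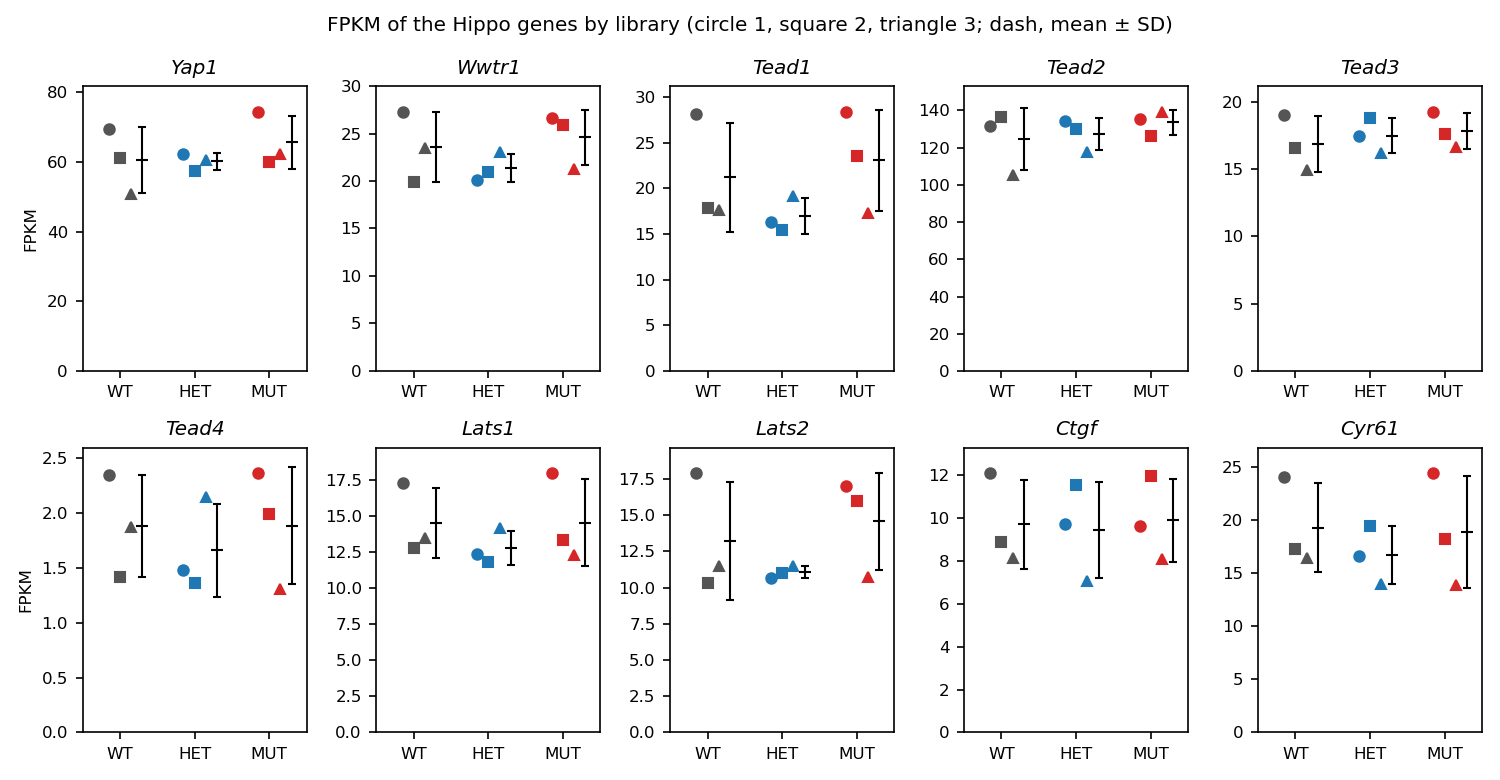
FPKM (vertical axis, linear and starting at 0) of each of the 10 Hippo genes in the 3 WT (grey), 3 HET (blue) and 3 MUT (red) libraries. Circles, squares and triangles are libraries 1, 2 and 3, and the dash with its bar is the mean ± SD of 3 libraries. The 3 genotypes overlap for every gene, and the circles of WT and MUT are the upper points in 8 of the 10 panels.

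The kinases come first in the cascade. *Lats1* (chromosome 10, 7681209 to 7716461, mm10) measured 17.3, 12.7 and 13.4 FPKM in WT, 12.4, 11.8 and 14.1 in HET, and 17.9, 13.3 and 12.3 in MUT, where each trio is ordered by library number, as it is for the genes that follow. WT-1 and MUT-1 were the high libraries, and the other 7 lay between 11.8 and 14.1 whatever their genotype. *Lats2* (chromosome 14, 57689662 to 57746123), its close paralogue and itself a gene that YAP is known to induce, measured 17.9, 10.3 and 11.5 FPKM in WT, 10.6, 11.0 and 11.5 in HET, and 17.0, 15.9 and 10.7 in MUT. Its HET libraries were tightly grouped (11.1 ± 0.431), while WT-1, MUT-1 and MUT-2 were high and MUT-3 fell within the HET range. *Lats1* made up 52.1% ± 3.14 of the summed *Lats1* and *Lats2* FPKM (SD, n = 9), with a range of 45.5% to 55.3%.

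The coactivators were led by *Yap1* (chromosome 9, 7932001 to 8004596), which measured 69.5, 61.2 and 50.9 FPKM in WT, 62.4, 57.4 and 60.6 in HET, and 74.4, 60.1 and 62.4 in MUT. WT alone covered most of the range, from the lowest library of all (WT-3) to the second highest (WT-1). *Wwtr1* (chromosome 3, 57455644 to 57575910) measured 27.3, 19.9 and 23.5 FPKM in WT, 20.1, 21.0 and 23.0 in HET, and 26.6, 25.9 and 21.3 in MUT. MUT-1 and MUT-2 were above all HET libraries and MUT-3 was not. *Yap1* made up 72.8% ± 2.44 of the summed FPKM of both coactivators, from 68.4% to 75.6% in single libraries.

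Among the TEAD genes, *Tead2* (chromosome 7, 45215753 to 45233619) measured 131.6, 136.4 and 105.6 FPKM in WT, 134.1, 129.9 and 117.9 in HET, and 135.6, 126.2 and 139.2 in MUT. WT-3 and HET-3 were the low libraries, and the other 7 lay between 126.2 and 139.2. *Tead1* (chromosome 7, 112679320 to 112906805) measured 28.1, 17.8 and 17.7 FPKM in WT, 16.3, 15.4 and 19.2 in HET, and 28.4, 23.5 and 17.3 in MUT. WT-1 and MUT-1 stood above the rest and MUT-2 lay between, while MUT-3 was below HET-3. *Tead3* (chromosome 17, 28331673 to 28350805) measured 19.0, 16.6 and 14.9 FPKM in WT, 17.4, 18.8 and 16.2 in HET, and 19.3, 17.6 and 16.6 in MUT. The genotypes overlapped, with WT-3 lowest and MUT-1 highest. *Tead4* (chromosome 6, 128227143 to 128300813) measured 2.35, 1.42 and 1.87 FPKM in WT, 1.48, 1.36 and 2.14 in HET, and 2.36, 1.99 and 1.30 in MUT. It stayed below the minimum of 5 FPKM used for the tests and is the 1 gene of the 10 without a fitted comparison.

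*Tead2* made up most of the TEAD pool in every library. *Tead2* contributed 76.5% ± 2.77 of the summed FPKM of the 4 genes (SD, n = 9, range 72.7% to 79.8%), *Tead1* 12.1% ± 2.43 (9.30% to 15.52%), *Tead3* 10.4% ± 0.546 and *Tead4* 1.08% ± 0.259. The *Tead1* share was 13.0% ± 2.77 in MUT, 10.4% ± 1.68 in HET and 12.8% ± 2.60 in WT (n = 3 each). The difference of 2.61 percentage points between MUT and HET had an exact two-sided permutation p of 0.2 (adjusted p = 0.857 over 12 share comparisons), and was 1.48 points without MUT-1 and 4.16 without MUT-3. No share comparison gave an exact p under 0.2, where 3 libraries against 3 cannot go below 0.1.

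**Figure D2:**
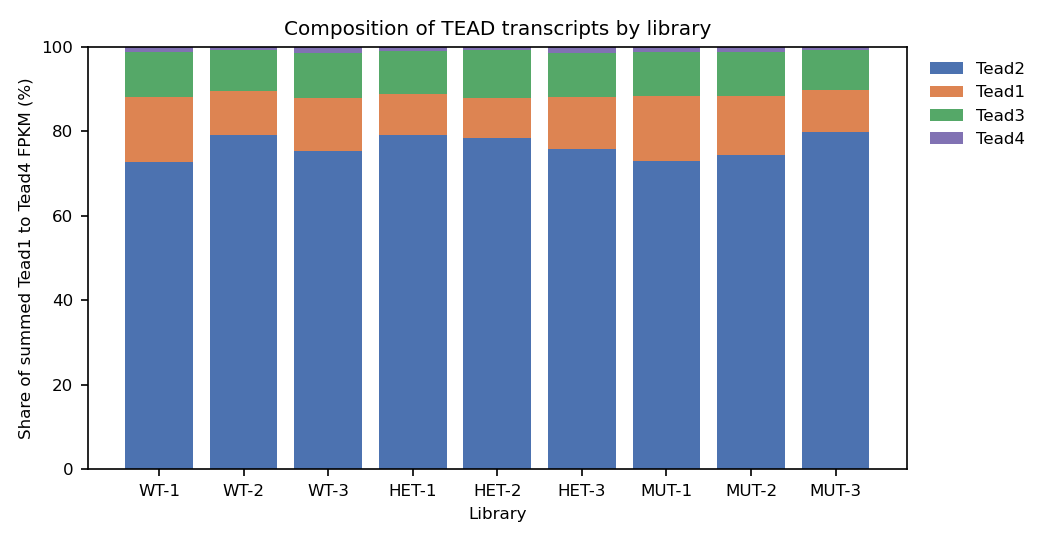
Share (%) of the summed *Tead1* to *Tead4* FPKM taken by each gene, stacked to 100% for each of the 9 libraries. *Tead2* takes between 72.7% and 79.8% in every library, and the *Tead1* share is largest in WT-1 and MUT-1.

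The target genes read out YAP and TAZ activity in many cell types, and both encode secreted matricellular proteins of the CCN family. *Ctgf* (chromosome 10, 24595442 to 24598682) measured 12.1, 8.87 and 8.16 FPKM in WT, 9.71, 11.5 and 7.07 in HET, and 9.64, 12.0 and 8.09 in MUT. Each genotype thus ran from below 9 FPKM to above 11. *Cyr61* (chromosome 3, 145646971 to 145649985) measured 24.1, 17.3 and 16.4 FPKM in WT, 16.7, 19.4 and 14.0 in HET, and 24.4, 18.2 and 13.9 in MUT. WT-1 and MUT-1 were again high, and MUT also held the lowest library. *Cyr61* made up 65.2% ± 3.28 of the summed FPKM of the pair. The immediate-early genes *Fos* and *Egr1*, chosen after their values were seen, were also highest in those 2 libraries: *Fos* measured 2.37 in WT-1 and 6.99 in MUT-1 against 0.563 to 1.13 elsewhere, and *Egr1* 14.4 and 18.3 against 7.51 to 11.7. Over the 23 immediate-early genes of the list, WT-1 and MUT-1 were both above the other 7 libraries for 9. Among those with a mean of at least 5 FPKM this held for 5 of 15, against 16.9% of all loci at that level. *Jund* was among those that differed, at 46.0 FPKM in WT-1 and up to 57.2 in the others apart from MUT-1. *Cyr61* is itself induced early by serum in cultured cells, and the part of such a response in its level was not tested.

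Promoter sequences are shown because *Cyr61* is a textbook TEAD target and because the same short motif was found before the coactivator genes. The 250 bases before the annotated start were taken from RefSeq on GRCm38.p6, where 7 of the 10 genes were matched in the promoter table used (11 starts in all, with *Cyr61* listed as Ccn1). The search covered CATTCC on both strands (GGAATG on the other), the core bound by TEAD proteins, and the CArG box of serum response factor. Capitals mark the TEAD core in each sequence, written 5′ to 3′ on the minus strand from which each gene is read.
Cyr61 chr3:145649986-145650235: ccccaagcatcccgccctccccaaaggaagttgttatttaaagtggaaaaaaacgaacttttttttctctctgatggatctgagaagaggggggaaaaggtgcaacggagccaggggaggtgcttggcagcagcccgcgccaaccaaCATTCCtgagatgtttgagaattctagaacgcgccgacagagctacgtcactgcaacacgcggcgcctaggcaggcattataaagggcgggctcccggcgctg
Yap1 chr9:8004597-8004846: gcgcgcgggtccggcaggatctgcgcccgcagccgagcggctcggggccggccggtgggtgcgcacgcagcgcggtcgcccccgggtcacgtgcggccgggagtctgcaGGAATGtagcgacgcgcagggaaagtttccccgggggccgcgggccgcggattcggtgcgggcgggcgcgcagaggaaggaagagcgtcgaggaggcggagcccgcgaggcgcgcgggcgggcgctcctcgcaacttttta
Wwtr1 chr3:57575911-57576160: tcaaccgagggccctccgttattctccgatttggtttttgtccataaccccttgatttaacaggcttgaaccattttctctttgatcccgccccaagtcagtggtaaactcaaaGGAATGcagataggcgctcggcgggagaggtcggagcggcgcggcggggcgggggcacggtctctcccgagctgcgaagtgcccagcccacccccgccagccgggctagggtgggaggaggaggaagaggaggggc
The core began 103 bases before the *Cyr61* start, 141 before that of *Yap1* and 136 before the first start of *Wwtr1*. It was also found 182 bases before 1 start of *Tead3*, and 123 and 114 bases before another. So 4 of the 7 matched genes held it at a listed start, some of them through more than 1 start. Of 32851 mouse promoters of the same length, counted start by start, 12.6% held it. The count is per gene and the share per start, so they are not in the same unit. The CArG box was in none of the 7 and in 1.47% of all promoters. *Tead2*, *Lats1* and *Lats2* had neither motif in this window, and *Ctgf*, *Tead1* and *Tead4* were not matched. A match describes letters in a window and not a bound site.

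The comparison of MUT with HET asked whether loss of the second stromal *Ntn1* allele changed the Hippo transcripts at constant *Foxd1* dosage. *Ntn1* itself had a log2 fold change of -0.10 in it (95% confidence interval -0.47 to 0.27, limma adjusted p = 0.887). Of the 10 genes, 9 passed the minimum and 0 of these 9 reached an adjusted p under 0.05 in limma, with a background of 0% of 10081 loci. At an unadjusted p under 0.05 there were 2 of 9, *Tead1* and *Lats2*, against 6.31% of all loci (636 loci, of which MUT was above HET for 371 and below for 265, or 435 and 199 after median-ratio rescaling). *Tead1* averaged 23.1 ± 5.53 FPKM in MUT against 17.0 ± 1.99 in HET (mean ± SD, n = 3 each), which gave a log2 fold change of 0.40 (SE 0.16, 95% confidence interval 0.05 to 0.76, limma adjusted p = 0.738). *Lats2* averaged 14.6 ± 3.36 against 11.1 ± 0.431, which gave a log2 fold change of 0.34 (SE 0.15, interval 0.01 to 0.68, limma adjusted p = 0.738). Fold changes here are on the log2(FPKM + 1) scale, which understates changes of low genes.

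Neither difference was uniform over the MUT libraries, since MUT-3 lay within the HET range for both genes. Without MUT-1, the log2 fold changes were 0.24 for *Tead1* and 0.23 for *Lats2*, and without MUT-3 they were 0.58 and 0.54 (limma adjusted p = 0.194 for each). With GC content and transcript length corrected in every library, the values were 0.26 and 0.30. An exact two-sided permutation test on FPKM gave p of 0.2 for *Tead1* and 0.3 for *Lats2*, where the smallest possible is 0.1. The unadjusted limma p also depended on the fit. It was 0.066 and 0.103 with all 9 libraries in 1 fit, and 0.067 and 0.084 with no minimum. For *Lats2* alone it rose above 0.05 with a minimum of 1 FPKM (0.056) and without a trend (0.053). Both genes stayed under 0.05 with median-ratio rescaling (0.027 and 0.037) and with the library number as a block (0.028 and 0.038). The same held with the GC and length correction (0.032 and 0.043).

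The coactivators differed less between MUT and HET. *Wwtr1* had a log2 fold change of 0.19 (interval -0.07 to 0.44, limma adjusted p = 0.738) and *Yap1* of 0.12 (interval -0.15 to 0.38, limma adjusted p = 0.803), and without MUT-1 these were 0.13 and 0.03. *Lats1* had 0.16 (interval -0.15 to 0.47), which became 0.01 without MUT-1. *Tead2* and *Tead3* had 0.07 and 0.03, the latter turning to -0.03 without MUT-1. The targets *Ctgf* and *Cyr61* had 0.07 (interval -0.32 to 0.46) and 0.14 (interval -0.26 to 0.54), and *Cyr61* turned to -0.05 without MUT-1.

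All 9 tested genes were nominally higher in MUT than in HET, with a median log2 fold change of 0.14, while 4631 of 10081 loci were higher and the median over all loci was -0.02. For 0 of the 9 were all MUT libraries above all HET libraries, against 5.19% of loci, and for 0 were they all below, against 4.5%. After the correction for GC content and length, *Tead3* was the 1 gene of the 9 that turned lower (-0.0049), and without MUT-1 *Tead3* and *Cyr61* were lower. Some marker lists were as one-sided, with 7 of 7 stromal and 6 of 6 ureteric bud and collecting duct genes higher in MUT than in HET. Others were not, with 2 of 5 nephron progenitor, 0 of 4 smooth muscle, 0 of 5 liver and 0 of 4 blood genes higher.

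**Figure D3:**
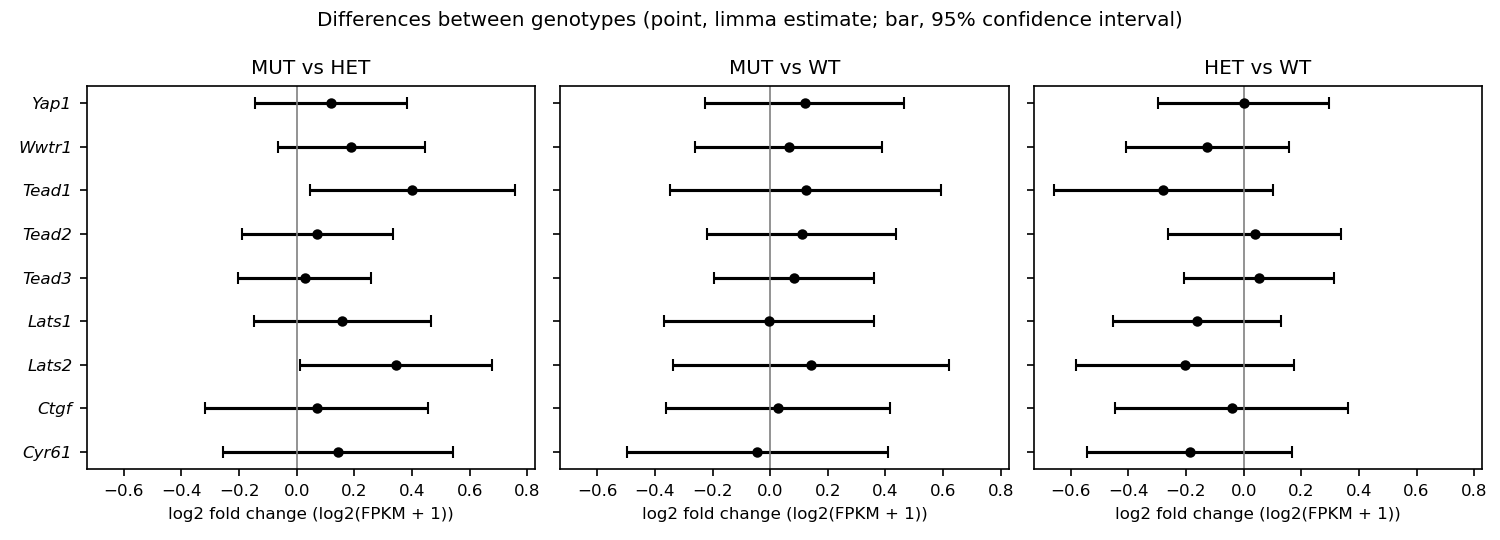
Log2 fold changes on the log2(FPKM + 1) scale (horizontal axis) of the 9 tested Hippo genes for MUT against HET, MUT against WT and HET against WT, with points for the limma estimate and bars for its 95% confidence interval. The interval leaves out 0 for *Tead1* and *Lats2* in MUT against HET, and includes it everywhere else.

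No Hippo gene passed the test against WT either. These comparisons share libraries with the one above, so their values are given side by side. *Ntn1*, the targeted gene, was not called either, with a log2 fold change of -0.87 in MUT against WT (interval -1.32 to -0.42, limma adjusted p = 0.99975). Nor was *Foxd1* in HET against WT, at -0.52 (interval -0.80 to -0.25, limma adjusted p = 0.998). With 3 libraries per genotype, the absence of a call therefore does not exclude a change. In MUT against WT, 0 of the 9 tested genes passed the adjusted threshold (0% of 10096 loci), and 0 passed at an unadjusted p under 0.05 (0.644% of loci, 65 loci). The largest log2 fold changes were 0.14 for *Lats2* (interval -0.34 to 0.62), 0.12 for *Tead1* (interval -0.35 to 0.59) and 0.12 for *Yap1* (interval -0.23 to 0.46), and every limma adjusted p of the 9 was 0.99975. Single libraries moved these values: *Yap1* was 0.0016 without WT-3, 0.03 without MUT-1 and 0.22 without WT-1, *Tead1* -0.03 without MUT-1 and 0.34 without WT-1, and *Lats2* 0.02 and 0.36. *Cyr61* and *Lats1* were nominally lower, at -0.05 and -0.0039, and *Lats1* changed sign under rescaling. Groups overlapped for all 9, while 1.32% of loci had every MUT library above every WT library and 1.34% had every one below.

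In HET against WT, 0 of 9 again passed the adjusted threshold (0% of 10105 loci) and 0 the unadjusted one (1.07%, 108 loci, 55 higher and 53 lower, or 73 and 43 after quantile normalisation, and 85 and 153 after the GC and length correction). *Tead1* had the largest difference, -0.28 (interval -0.66 to 0.10), followed by *Lats2* at -0.20 (interval -0.58 to 0.18) and *Cyr61* at -0.19 (interval -0.54 to 0.17). Without WT-1 these became -0.07, 0.02 and -0.02. *Yap1* was 60.1 ± 2.55 FPKM in HET and 60.5 ± 9.36 in WT, a log2 fold change of 0.00079 (interval -0.30 to 0.30). Groups overlapped for all 9, against 2.15% of loci entirely higher in HET and 1.06% entirely lower. Leaving out HET-2, the library with liver transcripts, gave 0.34 for *Tead1* and for *Lats2* in MUT against HET, and -0.21 and -0.20 in HET against WT.

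WT-1 and MUT-1 held the highest levels of most of the Hippo genes, in spite of their different genotypes. For *Tead1*, both libraries were at 28.1 and 28.4 FPKM while the other 7 lay between 15.4 and 23.5. *Lats1* was at 17.3 and 17.9 against 11.8 to 14.1, *Yap1* at 69.5 and 74.4 against 50.9 to 62.4, and *Cyr61* at 24.1 and 24.4 against 13.9 to 19.4. Both libraries exceeded all others for 8 of the 10 genes, every one but *Tead2* and *Ctgf*, and for 7 of the 9 with a mean of at least 5 FPKM. This held for 16.9% of the 9978 loci at that level, whose median transcript length was 5252 bases against 3348.5 for all of them. The longest Hippo transcripts, *Tead1* (9964 bases), *Lats1* (7209), *Yap1* (5282), *Lats2* (5191) and *Wwtr1* (4697), were all among the 8, but so was the shortest, *Cyr61* (2019 bases). The 2 libraries were singled out after their values were seen.

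**Figure D4:**
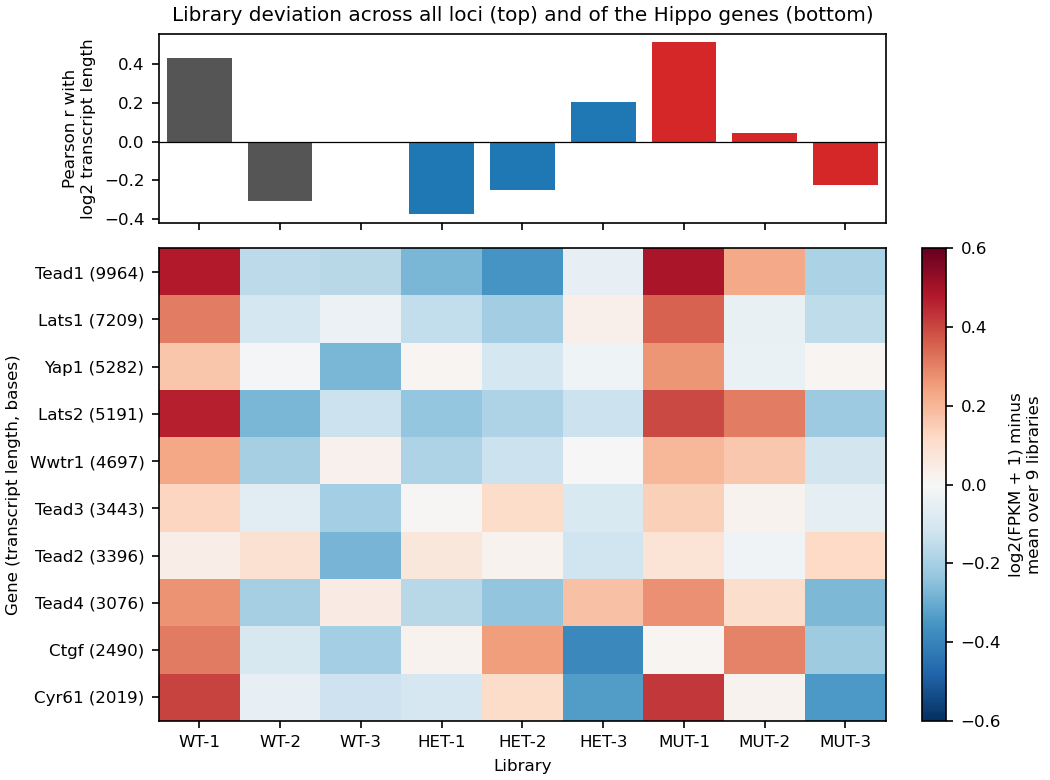
Top, Pearson r between log2 transcript length and the deviation of 9936 loci from their mean, for each library (grey WT, blue HET, red MUT). Bottom, deviation of each Hippo gene in each library from its mean over the 9 libraries on the log2(FPKM + 1) scale, red above and blue below, with genes ordered by transcript length. WT-1 (r of 0.435) and MUT-1 (r of 0.514) stand out in the top panel and are red for most genes below.

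Pairs of Hippo genes were compared over the 9 libraries on the log2(FPKM + 1) scale, with p from permutation and adjustment over 6 pairs. *Lats1* and *Lats2* varied together (Pearson r of 0.842, permutation p = 0.00733, adjusted p = 0.0440; Spearman rho of 0.75, permutation p = 0.0255, adjusted p = 0.0765). Within genotypes, as deviations from the genotype means, r was 0.834. Without WT-1 and MUT-1, the 2 libraries farthest from the *Lats1* median, r was 0.406, so the relation rested on those libraries. *Ctgf* and *Cyr61* had r of 0.718 (permutation p = 0.0310, adjusted p = 0.0620) and rho of 0.767 (permutation p = 0.0214, adjusted p = 0.0765), with r of 0.487 without the 2 libraries farthest from the *Ctgf* median and 0.873 without WT-1 and MUT-1. The target pair is thus the one whose r was not lower without WT-1 and MUT-1.

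The other 4 pairs did not pass the adjusted threshold. *Yap1* had r of 0.271 with *Ctgf* (rho 0.117, permutation p = 0.489 and 0.776, both adjusted to the same values) and 0.600 with *Cyr61* (rho 0.317, permutation p = 0.0835 and 0.410, adjusted 0.125 and 0.556). Without WT-1 and MUT-1 the latter was -0.250. *Lats1* and *Yap1* had r of 0.709 (rho 0.383, permutation p = 0.0306 and 0.313, adjusted 0.0620 and 0.556), which became -0.225 without those libraries. *Yap1* and *Wwtr1* had r of 0.440 (rho 0.283, permutation p = 0.246 and 0.463, adjusted 0.295 and 0.556), which became -0.357.

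The loci most alike to each gene, by Pearson r over the 9 libraries among 9977 loci, are given as a description, since they share libraries and depth with it. For *Lats1* they were *Macf1* (r of 0.995), *Arid2* (0.992) and *Usp24* (0.980), whose transcripts are 23495, 8507 and 10594 bases long. For *Lats2* they were *Arid3a* (0.987), *Wwc2* (0.986) and *Micall1* (0.984), of which *Wwc2* encodes a KIBRA-family activator of LATS kinases. The Spearman rho of *Lats2* with *Wwc2* was lower, at 0.783. Like *Lats2*, *Wwc2* was high in WT-1, MUT-1 and MUT-2 (26.3, 24.5 and 23.7 FPKM). For *Yap1* they were *Kdm2b* (0.983), *Ubqln2* (0.981) and *Larp1* (0.978), and for *Wwtr1* *Heca* (0.994), *Fbxw11* (0.984) and the joined locus of *Hipk3* and *Mir1902* (0.981). For *Ctgf* they were *Wsb2* (0.973), *Mmp23* (0.968) and *Pafah2* (0.967), and for *Cyr61* *Tnfaip2* (0.959), *Map7* (0.957) and *Prkch* (0.951). The transcripts of these 6 loci are between 1434 and 4252 bases long.

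The rest of the pathway was read from lists of genes beside the 10. In the core module that activates LATS (*Stk3* and *Stk4*, the MST kinases; *Sav1*, *Mob1a* and *Mob1b*, their scaffold and cofactors; and *Nf2*, the gene for merlin), 6 of 6 genes were nominally higher in MUT than in HET (4631 of 10081 over all loci), with a median log2 fold change of 0.22, and 0 passed the adjusted threshold. *Sav1* averaged 32.0 ± 3.80 FPKM in MUT against 25.8 ± 1.22 in HET, with a log2 fold change of 0.30 (SE 0.12, limma adjusted p = 0.738), and was the 1 gene of the 6 with all MUT above all HET libraries, against 5.19% of all loci. WT-1, at 34.6 FPKM, lay within its MUT range. *Mob1b* had the largest estimate, 0.45 (interval -0.06 to 0.95), but its libraries ran from 6.87 to 14.6 FPKM, with WT-2, HET-1, HET-2 and MUT-3 at 6.87 to 8.68. The module was nominally lower in HET than in WT for 6 of 6 genes (median -0.13), against 4810 of 10105 loci. It was higher in MUT than in WT for 5 of 6 (median 0.05), against 4912 of 10096 loci.

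Of 22 upstream regulators of the cascade, 21 were tested, of which 16 had the higher mean in MUT and 5 in HET. The split was 13 higher and 8 lower for MUT against WT, and 5 and 16 for HET against WT. All loci split 4631 and 5450 for MUT against HET, 4912 and 5184 for MUT against WT, and 5295 and 4810 for HET against WT. None passed the adjusted threshold in limma. At an unadjusted p under 0.05 there were 3 of 21 in MUT against HET, where all loci give 6.31%, and 0 of 21 in MUT against WT (0.644%) and in HET against WT (1.07%). The 3 were *Dlg5* at 0.46, *Wwc1* at 0.37 and *Wwc2* at 0.36 on the log2 scale, named after their values were seen. WT-1 was high for each of them as well (19.8, 18.2 and 26.3 FPKM), and *Wwc1* in MUT-3, at 9.41, was below every HET library. WT-1 and MUT-1 were both above the other 7 libraries for 13 of the 21 regulators, against 16.9% of the 9978 loci with a mean of at least 5 FPKM. The angiomotin genes, which hold YAP at junctions, had log2 fold changes of -0.04 (*Amot*), 0.26 (*Amotl1*) and 0.03 (*Amotl2*) in MUT against HET, and the phosphatase gene *Ptpn14* 0.24. *Vgll4*, a TEAD cofactor that competes with YAP, was 32.4 ± 2.89 FPKM in MUT, 28.1 ± 2.12 in HET and 30.3 ± 2.23 in WT, with 0.20 in MUT against HET (limma adjusted p = 0.738).

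Of 21 other genes known as YAP or TAZ targets, 15 were tested, and 12 of them had the higher mean in MUT and 3 in HET, with a median log2 fold change of 0.04. In MUT against WT the split was 12 and 3 (median 0.08), and in HET against WT 7 and 8 (median -0.01). All loci split 4631 and 5450 in MUT against HET, 4912 and 5184 in MUT against WT, and 5295 and 4810 in HET against WT. In each limma fit 0 of these genes passed the adjusted threshold. *Arhgef17*, at 0.47 and named after its value was seen, was 1 of 15 with an unadjusted p under 0.05 in MUT against HET, a share close to the 6.31% of all loci. Its highest library was WT-1, at 24.0 FPKM, followed by MUT-1 at 23.6. *Thbs1* and *Crim1* had 0.26 each, *Axl* 0.04 and *Ccdc80* 0.00013. *Ankrd1*, a widely used YAP target, was nearly silent at 0.0615 to 0.467 FPKM, and *Tgfb2* stayed at 3.89 to 4.85 FPKM, under the minimum. None of the 4 further CCN genes reached the minimum, and they summed to 6.13 to 11.0 FPKM in single libraries.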

How the data were processed

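The deposited table holds FPKM per locus. Per the labels and the methods, the authors made stranded mRNA libraries from whole E15.5 kidneys, aligned reads to mm10 with STAR, assembled transcripts with Cufflinks and computed FPKM with Cuffdiff. Versions are not given in the sources used here. FPKM were used as deposited, and read numbers are unknown, so precision comes from 3 libraries per genotype. The 3 kidneys of a genotype are not tied to single litters in the labels, so p-values measure the spread between these libraries.

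A locus entered a comparison when either genotype averaged 5 FPKM or more. Values of log2(FPKM + 1) were fitted in limma 3.58.1 (lmFit, eBayes with a trend, R 4.3.3), two-sided, with Benjamini-Hochberg adjustment over all loci tested and a threshold of 0.05. Each fit held only the genotypes compared. Exact permutation and sign-flip tests, tables and figures used Python 3.11.15, numpy 2.4.6, pandas 2.3.3, scipy 1.17.1 and matplotlib 3.10.9. Transcript length and GC content, from GENCODE annotation on GRCm38, were known for 98.6% of loci, and splines with 5 degrees of freedom were used to correct for them. Of the procedures, only the limma fit of MUT against HET was tested on simulated data, which had independent noise for each locus and library. The genes and lists were chosen with earlier results of these data known. Beside the 10 genes, those named were the core kinase module, 11 genes of the other Hippo lists, the 3 loci with the highest r for 6 of the genes, *Ntn1*, *Foxd1* and *Alb*, with later additions said to be so. The authors' qPCR and imaging were not analysed here.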

Additional observations from a re-analysis of the deposited data

How the results depend on the processing

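The fits were repeated with pseudocounts of 0.1 and 3, with minimums of 1 and 10 FPKM or none, with median-ratio or quantile rescaling, with all 9 libraries in 1 fit, without a trend, with GC correction and without each library in turn. Correction for GC and length together, and leaving out MUT-1 and WT-1, were added after seeing the data. No Hippo gene had an adjusted p under 0.05 in limma under any of them. *Ctgf* gave no value at the 10 FPKM minimum. Of 510 fold changes, 470 kept their direction and 40 did not. Many of these could not turn. A different minimum, no trend, all 9 libraries in 1 fit and a block for the library number leave the fold change itself as it is. Leaving out MUT-1 and WT-1 also repeats the fit without MUT-1 for MUT against HET, and that without WT-1 for HET against WT.

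With the replicate block (the library number as a block), 0 genes were called in each comparison, with 494, 201 and 233 at an unadjusted p under 0.05 for MUT against HET, MUT against WT and HET against WT, and no Hippo gene changed its call. Same-numbered libraries had correlations of their deviations between -0.320 (MUT-1 with HET-1) and 0.557 (MUT-1 with WT-1). Neither the labels nor the methods say whether a number marks a cross, so the fits in the report have no block. Leaving out single libraries gave 0 to 3 genes called in each of the 3 comparisons. Over all alternatives, loci at an unadjusted p under 0.05 numbered 261 to 1820 for MUT against HET (636 in the report, 1820 without MUT-3), 34 to 520 for MUT against WT (65) and 70 to 603 for HET against WT (108).

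Directions turned as follows on the log2 scale. With GC and length correction, *Tead3* in MUT against HET became -0.0049, *Lats1* in MUT against WT 0.0084 and *Tead2* in HET against WT -0.0018. With GC correction alone, *Lats1* in MUT against WT became 0.028, and *Tead2* and *Tead3* in HET against WT -0.025 and -0.0081. *Lats1* in MUT against WT became 0.015 with median-ratio and 0.0010 with quantile rescaling, and the latter gave -0.043 for *Yap1* and -0.040 for *Tead2* in HET against WT. Without MUT-1 and WT-1, *Tead3* and *Cyr61* in MUT against HET became -0.026 and -0.053, and *Lats2* and *Ctgf* in HET against WT 0.018 and 0.11.

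Leaving out single libraries, MUT against HET ranged from -0.026 to 0.079 for *Tead3*, -0.053 to 0.33 for *Cyr61* and -0.10 to 0.21 for *Ctgf*. MUT against WT ranged from -0.034 to 0.34 for *Tead1*, -0.16 to 0.12 for *Lats1*, -0.11 to 0.18 for *Ctgf*, -0.24 to 0.14 for *Cyr61*, -0.046 to 0.17 for *Wwtr1*, -0.0060 to 0.36 for *Lats2* and -0.0046 to 0.18 for *Tead2*. HET against WT ranged from -0.12 to 0.10 for *Yap1*, -0.076 to 0.11 for *Tead2*, -0.19 to 0.13 for *Ctgf*, -0.35 to 0.018 for *Lats2* and -0.024 to 0.14 for *Tead3*. In percentage points of the TEAD pool, MUT minus HET ranged from -0.063 to 0.22 for *Tead4*, and MUT minus WT from -1.03 to 1.76 for *Tead1*, -1.95 to 1.77 for *Tead2*, -0.49 to 0.12 for *Tead3* and -0.25 to 0.072 for *Tead4*. Without MUT-1 and WT-1, r became -0.357 for *Yap1* with *Wwtr1*, -0.250 for *Yap1* with *Cyr61* and -0.225 for *Lats1* with *Yap1*, the last also without the 2 libraries farthest from its median. The cause of these changes was not tested.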
